A study of Mus musculus with 7 samples.

Results

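The cytosolic ribosome of mammals is built from ribosomal RNA and a large set of proteins, with large-subunit proteins named Rpl and small-subunit proteins named Rps. These genes are among the most strongly expressed in a growing cell, and their mRNAs are short. Many of those mRNAs start with a pyrimidine-rich tract, the TOP motif, through which the kinase mTOR and the RNA-binding protein LARP1 control their translation and stability. Ovarian granulosa cells, the somatic cells around the oocyte, divide rapidly while the follicle grows and later switch to steroid production.

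Members were chosen by symbol. They were the rows of the count table named Rpl or Rps with a number and an optional suffix, together with Rplp0, Rplp1, Rplp2 and Rpsa and without the S6 kinases. This gave 93 of the 55228 rows. Of these, 52 were large-subunit genes, 33 were small-subunit genes, 7 were annotated as pseudogenes in GENCODE M21 (Rpl32l, Rpl37rt, Rpl6l, Rps12l1, Rps3a2, Rps3a3 and Rps4l), and Rps19bp1 encodes a binding partner of Rps19 that is not itself a ribosomal subunit. Fau, which also encodes a ribosomal protein, falls outside the symbol rule and is given with the related lists. The samples were untreated primary granulosa cells from the ovaries of C57BL/6J mice, 4 libraries from wild-type mice (WT) and 3 labelled Fhl2 knockout (KO). The age of the mice and the knockout allele are not stated in the labels. Whether libraries of 1 group stem from different mice or cultures is not labelled either. The p-values therefore measure only how these libraries vary, which may be technical variation.

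The libraries held 38855596 to 50514556 counts. Levels below are in CPM, the count per 1000000 counts of the library's total after TMM scaling, fold changes are KO over WT on the log2 scale with their standard error (SE), and a gene is called when its adjusted p from edgeR's quasi-likelihood test, over all 15798 genes tested, was below 0.05. Fhl2, which encodes a LIM-domain cofactor of transcription factors, was at 101, 114, 106 and 109.9 CPM in WT 1 to 4 and at 47.9, 66.8 and 60.4 CPM in KO 1 to 3 (log2 fold change -0.88, SE 0.11, adjusted p = 3.29e-05). Reads on Fhl2 thus remained in the KO libraries. Of 8 granulosa markers, 2 were higher (Inha and Fshr) and 4 lower (Foxl2, Inhbb, Amh and Nr5a2) in KO, and their summed level was 1619 to 1781 CPM in WT and 2057 to 2274 CPM in KO. Inha was at 979 to 1803 CPM and Foxl2 at 48.3 to 79.3 CPM over all libraries, whereas Cyp19a1 was at 0 in all WT libraries and at 0.132 to 0.362 CPM in KO. Summed levels of 4 pericyte and muscle markers were 869 to 959.9 CPM in WT and 459 to 535 CPM in KO, with 3 lower and Rgs5 at 0 in every library. Those of 4 stroma markers were 72.3 to 89.2 and 26.4 to 32.4 CPM, with 2 lower, and those of 3 theca markers were 44.0 to 48.2 and 29.5 to 34.9 CPM, with 1 lower. Those of 4 surface epithelium markers were 33.5 to 42.2 and 54.9 to 75.1 CPM, with 3 higher. The 3 lung markers summed to at most 0.15 CPM in WT and to 7.29, 18.3 and 0.75 CPM in KO 1 to 3. None of the endothelium, leukocyte, erythrocyte and oocyte markers was called, several of them being too low to be tested, and Cd3e was at 0 throughout. Their part in the results on ribosomal protein genes was not tested. In such bulk samples, a different mix of cells and a different amount of RNA per cell cannot be told apart.

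The sequences around the annotated starts were compared between members and other genes, and no motif counted below was found in most members. In the RefSeq promoter table of build GRCm38.p6, 68 of the 93 members were found. Below are 15 bases on each side of the start, 5′ to 3′ on the gene's strand, for some of the members described later. They are examples and not a representative set, and long pyrimidine runs are more frequent among them than among the subunit genes. Other members described later have shorter longest runs in such a window, as in Rps3 (3 bases), Rpl10 (3), Rps4x (4) and Rplp0 (5). Capitals mark the longest pyrimidine run of at least 5 bases, and the last 3 lines have none.
Rpl31, chr1:39367836-39367865, plus strand: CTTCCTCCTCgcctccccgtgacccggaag
Rps18, chr17:33955651-33955680, minus strand: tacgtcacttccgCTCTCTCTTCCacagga
Rpl18, chr7:45718056-45718085, plus strand: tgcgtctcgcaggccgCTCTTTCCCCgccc
Rps26, chr10:128626492-128626521, minus strand: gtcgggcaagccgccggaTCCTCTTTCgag
Rps6, chr4:86857353-86857382, minus strand: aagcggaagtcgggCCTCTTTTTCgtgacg
Rplp2, chr7:141447636-141447665, plus strand: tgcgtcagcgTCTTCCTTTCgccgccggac
Rps27, chr3:90213634-90213663, minus strand: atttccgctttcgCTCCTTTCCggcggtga
Rpl22l1, chr3:28805493-28805522, plus strand: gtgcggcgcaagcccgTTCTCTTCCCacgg
Rpl26, chr11:68901551-68901580, plus strand: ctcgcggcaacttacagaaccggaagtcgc
Rpl11, chr4:136053379-136053408, minus strand: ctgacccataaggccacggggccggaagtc
Rpl5, chr5:107900513-107900542, plus strand: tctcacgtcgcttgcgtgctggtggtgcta
A run of at least 8 C or T within 20 bases of the annotated start, on the gene's strand, was found in 30 of 65 subunit genes with a window (46.2%), in 19.1% of 10895 other genes tested and in 18.4% of all 27025 genes of the table. The letters CCGGAAG, the core of an ETS-factor motif, occurred on either strand in the window from 250 bases before to 50 bases after the start of 26 subunit genes (40%), of 19.2% of other genes tested and of 9.93% of all genes of the table. The letters TATAAA, on the gene's strand in the 50 bases before the start, occurred in 1 subunit gene (1.54%), in 1.77% of other genes tested and in 3.15% of all. On the opposite strand CCGGAAG reads CTTCCGG, whose pyrimidines can be part of such a run, so both matches can overlap. These motifs were chosen after the sequences were seen. Annotated starts can lie some bases away from the start in use, and a match describes letters and not a site in use.

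Ribosomal protein genes were higher in KO granulosa cells as a block, by about the same small factor. Of the 93 members, 89 passed the low-count filter, 70 rose, 1 fell and 18 were not called. Among all genes tested, 13.5% rose and 15.6% fell. The median log2 fold change of the tested members was 0.36, against 0.00 over all genes tested, and 88 of the 89 fitted values were above 0. For 79 members the value lay between 0.20 and 0.55. For 55 of the tested members all KO libraries lay above all WT libraries, as they did for 16.4% of all genes tested, and for 1 member all lay below, as for 17.7% of all genes. The rise was shared by the subunits: 39 of 49 tested large-subunit genes rose (median 0.36) and 26 of 33 small-subunit genes (median 0.34), and none of either fell. The members' share of all counts was 3.11%, 3.35%, 3.18% and 3.12% in WT 1 to 4 and 3.49%, 4.52% and 4.48% in KO 1 to 3, or 3.19% ± 0.109 (SD, n = 4) against 4.16% ± 0.585 (SD, n = 3). Every KO library thus lay above every WT library, with KO 1 close to the highest WT library.

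The KO libraries were not alike. Relative to the WT mean of each gene, the median member stood at 0.11 on the log2 scale in KO 1, at 0.45 in KO 2 and at 0.47 in KO 3, while the WT libraries ran from -0.04 to 0.06. The number of members called higher differed with the library left out: it was 12 without KO 3 (where 4.09% of all genes rose), 46 without KO 2 (8.94%), 43 without WT 1 (9.66%), 66 without WT 2 (12.3%), 51 without WT 3 (8.73%), 45 without WT 4 (8.14%) and 81 without KO 1 (20.6%). With KO 1 as the only KO library, assumed to vary like the WT libraries, no member rose by edgeR (median 0.11), where 1.63% of all genes tested rose, and 10 members were higher at an unadjusted p below 0.05, where 7.27% of all genes were. Over those settings 1 member, Rps4l, fell each time.

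**Figure D1:**
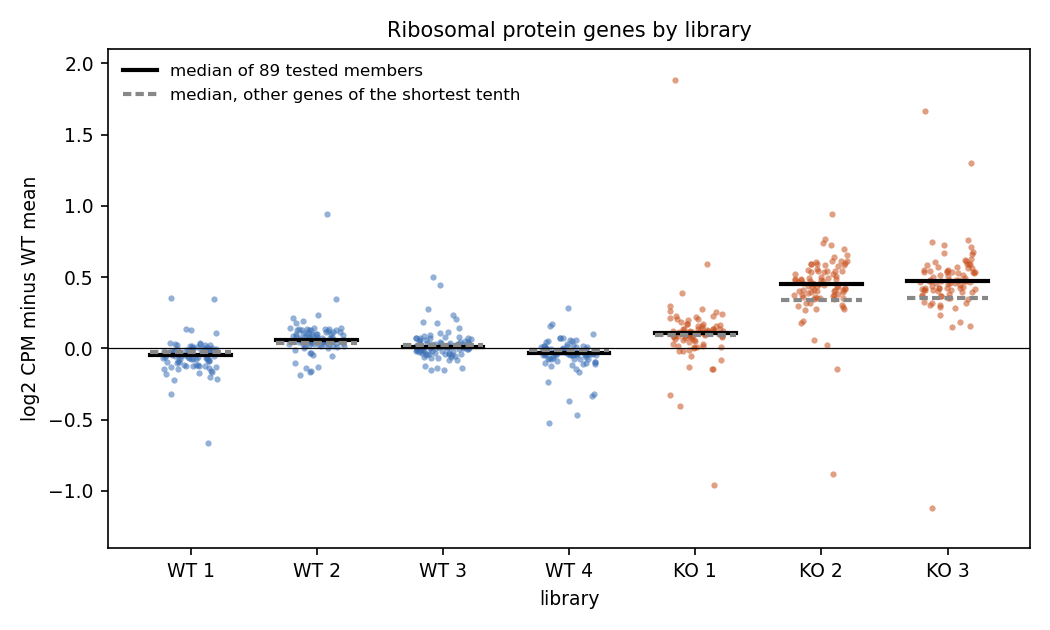
Each point is 1 of the 89 tested ribosomal protein genes, at its log2 CPM minus the mean of the WT libraries (vertical axis), by library (horizontal axis). The black bars, the members' medians, stand at 0.11 in KO 1, 0.45 in KO 2 and 0.47 in KO 3, and the dashed grey bars, the medians of other genes in the shortest of 10 length bins, at 0.10, 0.34 and 0.35.

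The members are short, and short transcripts as a class were high in KO 2 and KO 3 and, by less, in KO 1. The annotated transcript of the median tested member had 774 bases, against 2517 bases for the other genes with a length. Across those other genes, log2 CPM relative to the mean of all libraries changed by 0.05 to 0.07 per doubling of length in the WT libraries, by -0.00 in KO 1, by -0.14 in KO 2 and by -0.12 in KO 3. The slope of KO 1 thus also lay below that of every WT library. When the genes were put in 10 bins of equal size by length, 49 members fell in the shortest bin and 30 in the next. In the shortest bin, other genes had a median log2 fold change of 0.27 and 23.7% of them rose, and members a median of 0.37 with 39 of 49 rising (79.6%). In the second bin the values were 0.24 and 27.1% for other genes, and 0.33 with 23 of 30 (76.7%) for members. In the bin of the longest transcripts, which held no member, the median of other genes was -0.37 and 1.09% rose. Relative to the WT mean, genes of that bin stood at -0.15 in KO 1, -0.57 in KO 2 and -0.42 in KO 3. By library, other genes of the shortest bin stood at 0.10, 0.34 and 0.35 in KO 1, KO 2 and KO 3, and members of that bin at 0.12, 0.48 and 0.50. Members lay above other short genes in each of these libraries, by less in KO 1 than in the other KO libraries.

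**Figure D2:**
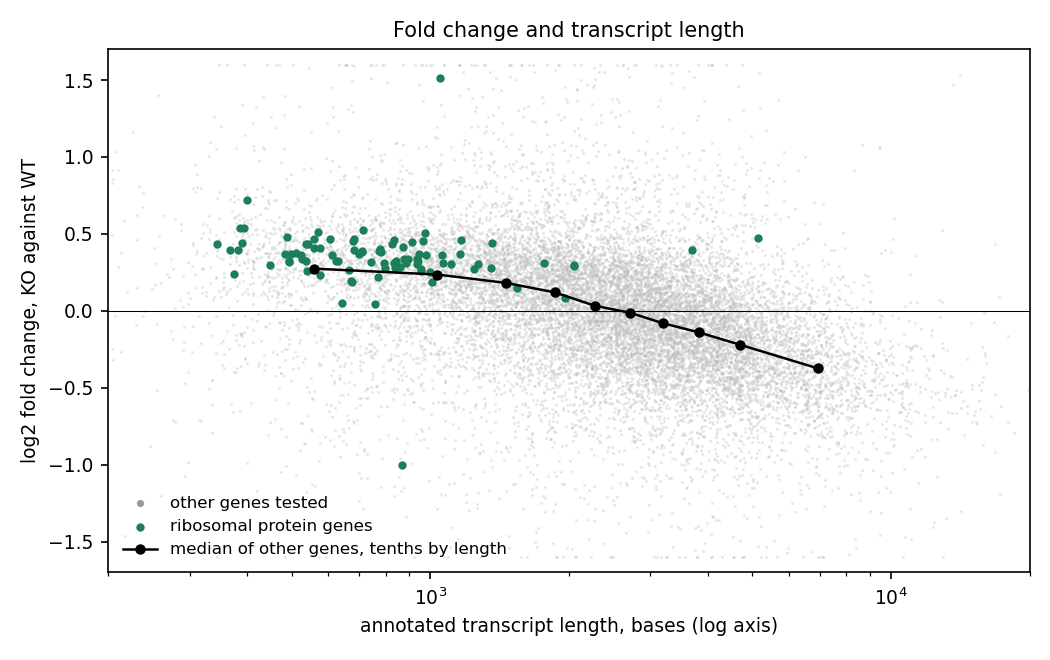
Log2 fold change of every tested gene (vertical axis, values beyond 1.6 drawn at the edge) against annotated transcript length in bases (log axis, with the shortest and longest genes outside it), with ribosomal protein genes in green and other genes in grey. The black line joins the medians of other genes in 10 length bins and falls from 0.27 to -0.37, and most members lie above its left end.

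A correction took out, for each library, the fitted dependence of log2 CPM on transcript length and GC content, and the members' change became smaller. The median was then 0.11, against 0.01 over all genes tested, and 74 of 89 values stayed above 0. After it, 18 members rose and 1 fell, where 11.8% of all genes tested rose and 11% fell, and each of the 18 had also been called without it. Of other genes in the shortest and the second length bin, 4.84% and 9.43% rose after it. With the trend fitted without the members the count was 19, and with length alone it was 10, where 11.9% and 10.2% of all genes rose. The corrected medians by library were 0.01 in KO 1, 0.16 in KO 2 and 0.16 in KO 3. In KO 1 alone with the correction, the median was 0.01 and 1 member rose, Rpl23 (0.24, SE 0.07, adjusted p = 0.0387), where 2.79% of all genes rose. Nearly all members are short, and the part of the length trend in their change was not tested beyond these fits.

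The 18 that passed in both fits, listed here for that outcome, were led by Rpl17 and by Rps15a and Rps20. Rps15a went from 0.47 (SE 0.12) to 0.82 (SE 0.20, adjusted p = 0.0254) and Rps20 from 0.40 (SE 0.11) to 0.56 (SE 0.13, adjusted p = 0.0113). Their annotated lengths, 5130 and 3706 bases as the median over basic transcripts, are far above those of the other members, and the correction moved them up rather than down. The corrected values rest on these annotated lengths, and which transcripts of these genes were present was not tested. Both lost their calls in the uncorrected fit without KO 3 (adjusted p = 0.0766 and 0.0994). The others were Rps4x (0.35 after correction, SE 0.11), Rpl7 (0.34, SE 0.08), Rps27a (0.33, SE 0.09), Rpl9, Rpl37, Rpl22, Rpl5, Rps26, Rplp0, Rps21, Rpl10, Rpl27a, Rpl23, Rps3a1 and the pseudogene Rpl37rt, at 0.20 to 0.29.

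**Figure D3:**
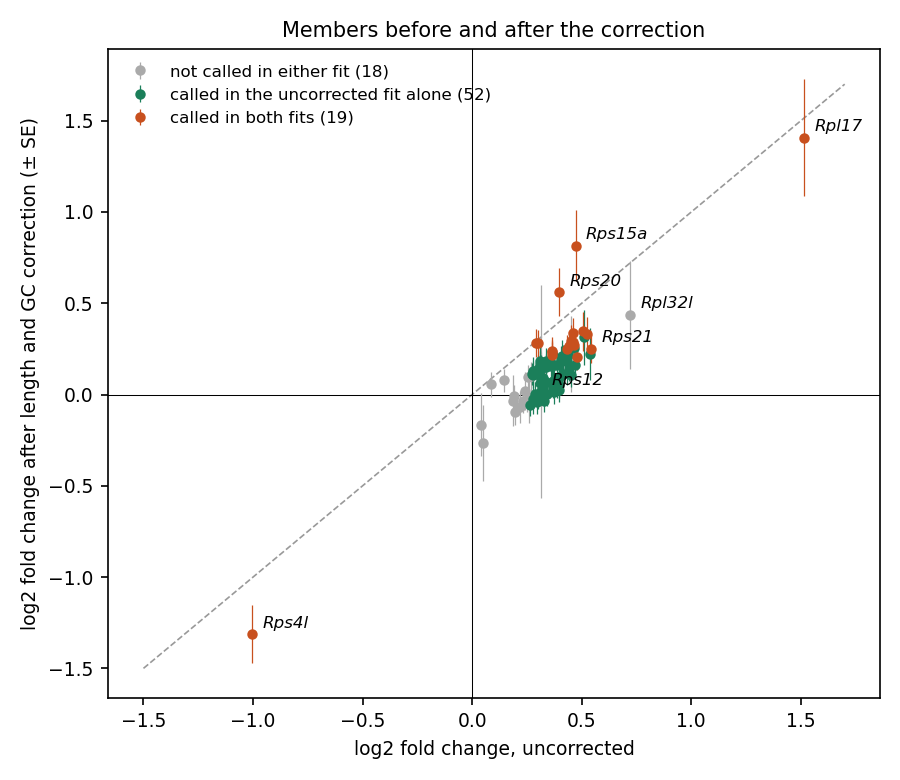
Log2 fold change of the 89 tested members without (horizontal axis) and with (vertical axis, bars are SE) the length and GC correction, where the dashed line marks equal values. The 19 members called in both fits are orange, 18 of them above 0 and Rps4l below, the 52 called in the uncorrected fit alone are green and lie below the dashed line, and 18 called in neither are grey.

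Rpl31, a large-subunit protein beside the exit of the peptide tunnel, behaved as the typical member did. Its gene lies on chromosome 1 (GRCm38, 39367842 to 39371911, plus strand), 3.76 Mb from Fhl2, measured between their leftmost annotated bases. It was at 280.1, 294, 285 and 280.3 CPM in WT 1 to 4 and at 318, 378 and 375 CPM in KO 1 to 3. All KO libraries lay above all WT libraries, KO 1 by the least. The log2 fold change was 0.33 (SE 0.09, adjusted p = 0.0127), and it was 0.09 (SE 0.06, adjusted p = 0.32) after the length and GC correction. The call was also lost without KO 3 (0.29, adjusted p = 0.0736) and with KO 1 alone (0.16, adjusted p = 0.327).

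The 10 members with the smallest p among those that rose came from both subunits and include Rpl37rt, annotated as a pseudogene. Rps21, a small-subunit protein, was at 106, 125, 123 and 113 CPM in WT and at 136, 189 and 184 CPM in KO (0.54, SE 0.11, adjusted p = 0.00246). Its lowest KO library, KO 1, lay above its highest WT library. Rpl26, which lies near the tunnel exit and is also known to bind p53 mRNA, was at 334, 383, 369 and 347 CPM in WT and at 413, 528 and 545 CPM in KO (0.47, SE 0.10, adjusted p = 0.00373). Rps26, which contacts the mRNA upstream of the start codon, was at 475, 519, 527 and 475 CPM in WT and at 561, 744 and 763 CPM in KO (0.47, SE 0.11, adjusted p = 0.00464). Both genes showed the same order, with KO 2 and KO 3 far above WT and KO 1 just above it. Rps27a, made as a fusion with ubiquitin, went from 342 ± 41.9 CPM (SD, n = 4) to 492 ± 81.9 CPM (SD, n = 3), a log2 fold change of 0.53 (SE 0.12, adjusted p = 0.00493). The remaining members of these 10 were Rpl37rt, Rpl37, Rps29, Rpl7, Rps18 and Rpl18, with log2 fold changes of 0.43 to 0.48. In all 10 every KO library lay above every WT library, as in 16.4% of all genes tested. Choosing members by small p favours such a separation. Rpl18 lost its call without KO 3 (adjusted p = 0.0502), and the other 9 kept theirs with any 1 library left out. After the length and GC correction Rpl26 (0.16, adjusted p = 0.0947), Rps29 (0.15, adjusted p = 0.165), Rps18 (0.12, adjusted p = 0.207) and Rpl18 (0.11, adjusted p = 0.269) were not called.

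The most abundant members by transcript length were Rps6, Rps3, Rps2, Rps24 and Rplp0, at 1788, 1554, 1263, 1118 and 1049 CPM per kilobase in WT. By CPM alone Rpsa led, at 1855 ± 50.5 CPM in WT (SD, n = 4). Rps6, the substrate of the S6 kinases, was at 1514, 1519.7, 1620.2 and 1627 CPM in WT and at 1668, 2096 and 2179.9 CPM in KO (0.34, SE 0.10, adjusted p = 0.0184). It lost its call without WT 1, KO 2 or KO 3, with adjusted p of 0.0547 to 0.12. Rps3 and Rps2, which line the mRNA entry channel, were not called: Rps3 changed by 0.26 (SE 0.10, adjusted p = 0.0519) and Rps2 by 0.25 (SE 0.10, adjusted p = 0.066). For both, KO 1 lay among the WT libraries. Rps24 changed by 0.36 (SE 0.10, adjusted p = 0.0148) and lost its call without WT 1, KO 2 or KO 3 (adjusted p 0.0516 to 0.0803). After the length and GC correction Rps6 (0.15, adjusted p = 0.142) and Rps24 (0.16, adjusted p = 0.112) were not called.

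**Figure D4:**
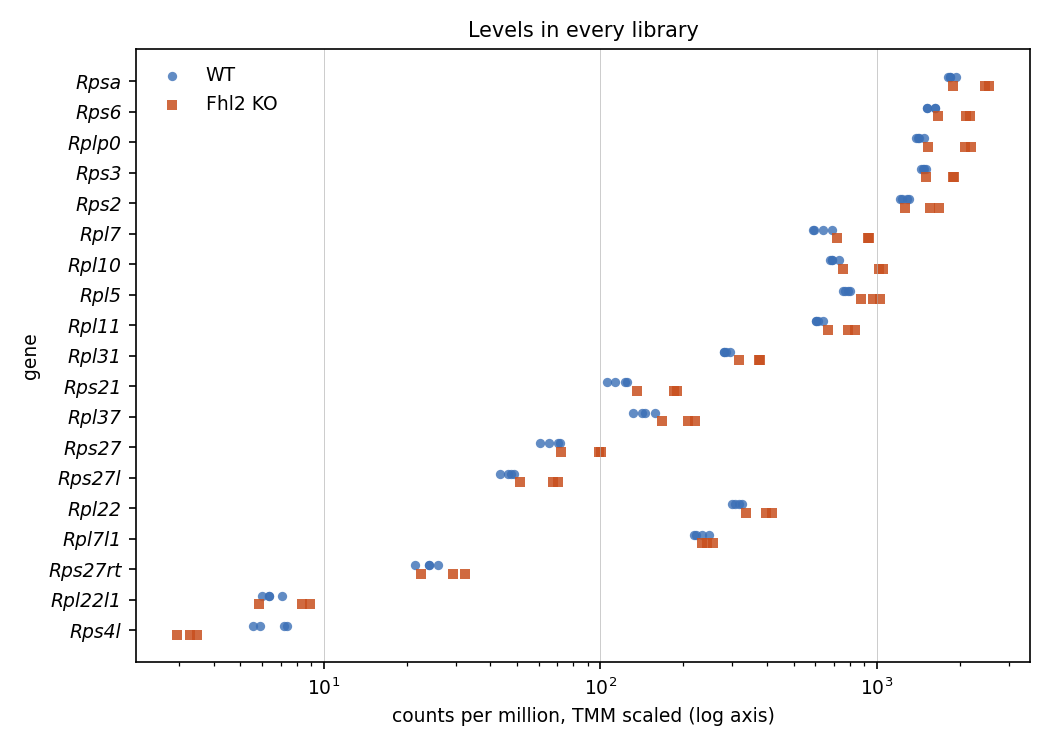
TMM-scaled CPM (log axis) of 19 ribosomal protein genes in each library, with WT as blue circles and KO as orange squares. In most rows 1 KO library, KO 1, sits beside the WT libraries and the other KO libraries to the right, as in Rpl31 (318 against 378 and 375 CPM), while Rps4l has all KO libraries to the left.

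The stalk proteins recruit elongation factors to the large subunit. Rplp0, the stalk base, was at 1423, 1480.2, 1407 and 1389 CPM in WT and at 1538, 2085 and 2185 CPM in KO (0.44, SE 0.11, adjusted p = 0.00698), and it lost its call without KO 3 (adjusted p = 0.0666). Rplp1 rose by 0.37 (SE 0.10, adjusted p = 0.0128; 0.0929 without KO 3). Rplp2 rose by 0.30 (SE 0.09, adjusted p = 0.0263), and leaving out any 1 library other than KO 1 took its call away, with adjusted p of 0.051 to 0.112. After the length and GC correction Rplp0 kept a change of 0.27 (adjusted p = 0.0285), whereas Rplp1 stood at 0.01 and Rplp2 at -0.04. Rpsa, the small-subunit protein also known as the laminin receptor precursor, was at 1838, 1929, 1839 and 1814 CPM in WT and at 1889.9, 2461 and 2549 CPM in KO. KO 1 lay among the WT libraries, and the log2 fold change of 0.31 (SE 0.10, adjusted p = 0.0305) lost its call without WT 1, WT 3, WT 4, KO 2 or KO 3, with adjusted p of 0.0709 to 0.18.

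Rpl5 and Rpl11, which with 5S RNA bind MDM2 when ribosome assembly fails, both rose. Rpl5 was at 753, 789.5, 803 and 769 CPM in WT and at 877, 973 and 1024 CPM in KO (0.30, SE 0.09, adjusted p = 0.0182). Its KO 1 level was above all WT libraries, and its change was 0.28 (SE 0.07, adjusted p = 0.0138) after the correction. Its annotated transcript, 2045 bases, is longer than that of most members. Rpl11 changed by 0.31 (SE 0.09, adjusted p = 0.0201) and by 0.06 (adjusted p = 0.512) after the correction. The call of Rpl5 was lost without WT 1, WT 4 or KO 3 (adjusted p 0.0578 to 0.0997), and that of Rpl11 without WT 1, WT 3, WT 4, KO 2 or KO 3 (0.0524 to 0.122).

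All 4 members on the X chromosome rose, with a median log2 fold change of 0.40. Of all 89 tested members 70 rose (78.7%), with a median of 0.36, and of all genes tested 13.5% rose. Rps4x was at 517, 589, 525 and 507 CPM in WT and at 559, 835 and 884 CPM in KO (0.51, SE 0.13, adjusted p = 0.0118), with KO 1 inside the WT range. Rpl10, a protein added late in large-subunit assembly, rose by 0.43 (SE 0.11, adjusted p = 0.00716), Rpl39 by 0.36 (SE 0.10, adjusted p = 0.0147) and Rpl36a by 0.37 (SE 0.10, adjusted p = 0.0121). Without KO 3 none of these 4 was called (adjusted p 0.0663 to 0.0962), and Rpl39 was not called without WT 1 either (0.0562). After the correction Rps4x (adjusted p = 0.0333) and Rpl10 (adjusted p = 0.0336) remained called.

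Some members have a paralog in the table. Rpl22, an RNA-binding large-subunit protein, was at 300.4, 326, 319 and 308 CPM in WT and at 337, 398 and 417 CPM in KO (0.29, SE 0.09, adjusted p = 0.0248), and lost its call without WT 1, WT 3, WT 4, KO 2 or KO 3 (adjusted p 0.0543 to 0.141). Its paralog Rpl22l1 was at 7.07, 5.98, 6.35 and 6.32 CPM in WT and at 5.81, 8.33 and 8.89 CPM in KO (0.26, SE 0.15, adjusted p = 0.209), with KO 1 the lowest of all libraries. Rpl7l1, a relative of Rpl7 that acts in large-subunit assembly, was at 233, 246, 219 and 221 CPM in WT and at 244, 233 and 255 CPM in KO (0.08, SE 0.09, adjusted p = 0.489), where Rpl7 itself rose by 0.46 (SE 0.10, adjusted p = 0.00472). The annotated transcript of Rpl7l1 has 1958 bases and that of Rpl7 1163. The difference between paralogs was not tested. Rps27 rose by 0.43 (SE 0.11, adjusted p = 0.00972) and Rps27l, known as a p53 target, by 0.44 (SE 0.11, adjusted p = 0.00737). Both lost their calls without KO 3 (adjusted p = 0.0812 and 0.0598). Rps27rt, at 23.9 ± 1.87 CPM in WT and 28.2 ± 5.12 CPM in KO, was not called (0.24, SE 0.12, adjusted p = 0.134), and 91.1% of its 50-base windows are also found in transcripts of other genes.

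Of the remaining named members, Rpl36al was at 2.73 ± 0.0939 CPM in WT and 2.8 ± 0.619 CPM in KO and was not called (adjusted p = 0.893). An annotated gene, Gm49383, overlaps it. Of the reads of Rpl36al and its annotated pseudogene together, 57.0% lay in the pseudogene's row. Their sum was not called either (0.20, SE 0.15, adjusted p = 0.35). Rps3a2 and Rps3a3, annotated as pseudogenes, rose by 0.31 (SE 0.10, adjusted p = 0.0305) and 0.28 (SE 0.10, adjusted p = 0.0412). Both were not called without WT 1, WT 4, KO 2 or KO 3, and Rps3a2 also without WT 3 (adjusted p 0.0585 to 0.18). Rps19bp1 rose by 0.28 (SE 0.09, adjusted p = 0.0329), from 19.8 ± 0.277 to 24 ± 0.859 CPM, and its KO 1 level of 23.1 CPM lay nearer to the other KO libraries than in most members. It was not called without WT 1, WT 3, WT 4, KO 2 or KO 3 (adjusted p 0.0642 to 0.121), and stood at -0.03 after the correction. The 4 members not tested were near 0: Rps12l1 and Rpl10l had no count in any library, Rpl39l had 4 counts in WT 3 and 3 in KO 3, and Rpl3l had 4 in WT 1. Rpl10l and Rpl39l are known from testis and Rpl3l from striated muscle, and 3 counts, taken as the floor per library, correspond to 0.0594 to 0.0772 CPM.

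Rps4l was the only tested member that fell. This retrocopy on chromosome 6 (148354656 to 148355598, plus strand) is annotated as a transcribed processed pseudogene. It was at 5.55, 7.35, 5.86 and 7.19 CPM in WT 1 to 4 and at 3.29, 3.47 and 2.94 CPM in KO 1 to 3. The groups did not overlap and KO 1 lay with the other KO libraries. The log2 fold change was -1.0 (SE 0.16, adjusted p = 0.00042), -1.31 (SE 0.16, adjusted p = 5.03e-05) after the correction and -0.98 (adjusted p = 0.0116) with KO 1 alone. Of its 50-base windows, 18% are found in another annotated transcript, that of Rps4l-ps.

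Ribosomal protein genes have many processed pseudogenes, so the rows of the table are not independent measures of single genes. Of the 82 tested subunit genes, 51 shared more than 50% of their 50-base windows with transcripts of other genes, and the median share was 60.8%. The highest share was that of Rps27, 98.7%. The stretches below, each of 60 bases from the coding sequence in GENCODE M21, are identical in other annotated transcripts. Positions count from the first coding base annotated in the transcript used for each gene, and another annotated start would shift them. They are shown because reads from them have more than 1 possible origin.
Rpl31, bases 42 to 101, also in 9 pseudogenes: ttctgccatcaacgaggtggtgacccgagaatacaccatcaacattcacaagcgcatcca
Rps10, bases 1 to 60, also in 2 pseudogenes and a read-through gene: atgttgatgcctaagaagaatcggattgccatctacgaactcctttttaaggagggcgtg
Rpl24, bases 65 to 124, also in 2 pseudogenes and 2 other genes: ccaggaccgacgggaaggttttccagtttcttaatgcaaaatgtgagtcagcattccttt
Rps12, bases 344 to 403, also in 20 pseudogenes and 2 other annotated genes: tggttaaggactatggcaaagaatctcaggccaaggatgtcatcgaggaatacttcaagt
How reads from such stretches were assigned is not given in the sources used here. Summing each member with the annotated pseudogenes that share its sequence gives a measure that such assignment cannot move between rows of a family.

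Family sums narrowed the spread among members and left the level of the change as it was. Across the 82 subunit genes the SD of the log2 fold changes was 0.16 in the members' own rows and 0.09 in the sums, and the range went from 0.04 to 1.52 to 0.11 to 0.59. Of the 84 families tested, 72 rose and 1 fell (median 0.38), where 14.7% of all rows so tested rose and 15.3% fell. With the length and GC correction 18 rose (median 0.12), where 12.2% of all rows rose. The coefficient of variation within WT exceeded 20% in 5 own rows (Rps12, Rpl17, Rpl7a, Rps10 and Rpl30) and in no sum. These 5 genes, and Rpl24 and Rpl23 here, were singled out after their values were seen.

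Rpl17, a large-subunit protein near the tunnel exit, had the largest change of any tested member in its own row. It was at 39.1, 35, 55.6 and 31.1 CPM in WT and at 145, 75.3 and 125 CPM in KO (1.52, SE 0.28, adjusted p = 0.0112). The groups did not overlap, and KO 1 was the highest library. Its family, with 75.9% of its reads in pseudogene rows, was at 221, 248, 256 and 250 CPM in WT and at 309, 380.1 and 397 CPM in KO. The family changed by 0.59 (SE 0.10, adjusted p = 0.000534), by 0.44 (adjusted p = 0.000448) with the correction and by 0.34 (SE 0.09, adjusted p = 0.0268) with KO 1 alone, where 1.73% of all rows rose. The sum thus changed by less than the own row but kept its call in each of these fits.

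Rps12 ranged over 59.2, 180.3, 106 and 67.7 CPM in WT and 70.6, 84.7 and 231 CPM in KO (0.32, SE 0.62, adjusted p = 0.754). Its family, with 72.3% of reads in pseudogene rows, ran from 324 to 445 CPM in WT and from 363 to 605 CPM in KO (0.38, SE 0.17, adjusted p = 0.106). Rps10 and Rpl24 were very low in their own rows, at 2.25 ± 0.506 and 4.44 ± 0.398 CPM in WT, and 95.9% and 91.9% of their family reads lay in pseudogene rows. An annotated gene overlaps each of them on the same strand, the read-through gene RPS10-NUDT3 and Gm28037. Their family sums were 49.2 ± 2.35 and 51.5 ± 1.29 CPM in WT and 62.9 ± 10.5 and 66.8 ± 8.91 CPM in KO. Rps10 went from 0.05 (adjusted p = 0.893) to 0.38 (SE 0.11, adjusted p = 0.0148) and Rpl24 from 0.19 (adjusted p = 0.387) to 0.40 (SE 0.10, adjusted p = 0.00719), close to the median member. Rpl7a likewise was called in the sum (0.37, SE 0.12, adjusted p = 0.0251) and not in its own row (0.45, SE 0.20, adjusted p = 0.126).

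**Figure D5:**
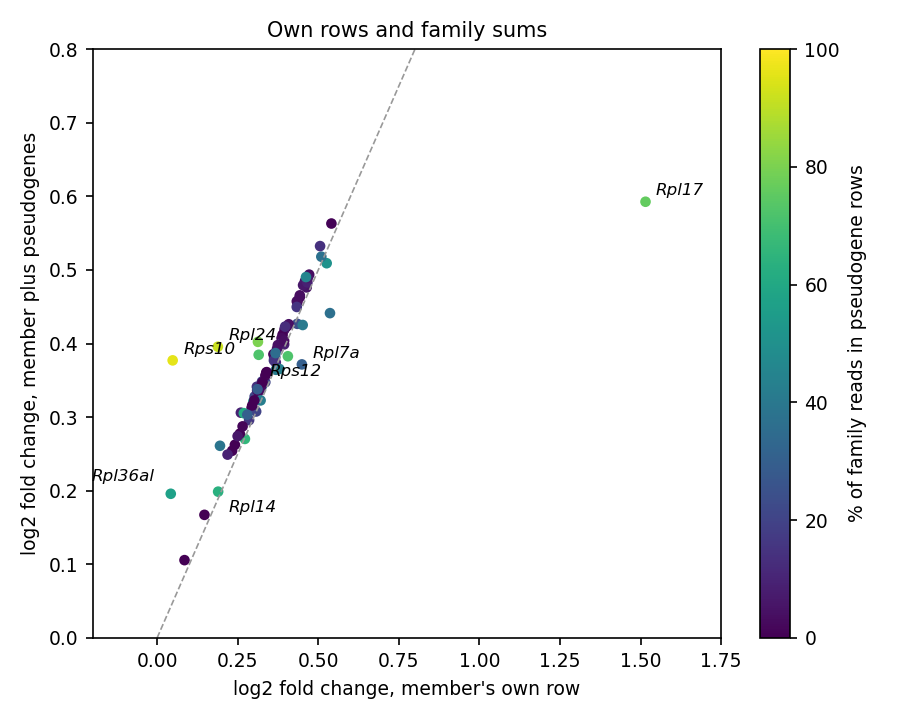
Log2 fold change of 82 ribosomal protein genes in their own rows (horizontal axis) and summed with their pseudogenes (vertical axis), coloured by the percentage of family reads in pseudogene rows. Most points lie on or close to the dashed line of equal values, while Rpl17 moves from 1.52 to 0.59 and Rps10 from 0.05 to 0.38.

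Genes whose products work with the ribosome moved in both directions. Fau, which encodes a ribosomal protein fused to a ubiquitin-like protein, and Rack1, a scaffold on the small subunit, rose by 0.36 (SE 0.10, adjusted p = 0.0136) and 0.37 (SE 0.10, adjusted p = 0.0129). Both had KO libraries above WT, and both lost their calls without KO 3 (adjusted p = 0.0955 and 0.0969). After the length and GC correction Fau stood at -0.0082 (adjusted p = 0.946) and Rack1 at 0.25 (adjusted p = 0.0331). Mitochondrial ribosomal proteins, nuclear-encoded and also short, rose in 44 of 77 tested genes (57.1%) with a median of 0.30 and none fell. Among all genes tested, 13.5% rose and 15.6% fell. After the correction 22 of them rose, with a median of 0.13, and none fell, where 11.8% and 11% of all genes did. Mrpl24 (0.54, SE 0.10, adjusted p = 0.00136), Mrpl33 (0.55, SE 0.11, adjusted p = 0.00182), Mrps10 (0.48, SE 0.10, adjusted p = 0.00296) and Mrps18c (0.61, SE 0.13, adjusted p = 0.00312) had the smallest p.

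Of 61 ribosome biogenesis genes, 7 rose (11.5%) and 15 fell (24.6%), with a median of -0.10, against 13.5% and 15.6% of all genes tested. After the correction 8 rose and 14 fell, with a median of -0.06, where 11.8% and 11% of all genes rose and fell. Nucleolin (Ncl), which acts in ribosomal RNA transcription and processing, was at 2403, 2067, 2981 and 2367 CPM in WT and at 1745, 1510.2 and 1509 CPM in KO (-0.63, SE 0.11, adjusted p = 0.00119), with no overlap. After the correction its change was -0.17 (adjusted p = 0.125). The nucleolar helicase Ddx21 fell by 0.58 (SE 0.10, adjusted p = 0.00108) and Nop14, a small-subunit assembly factor, by 0.51 (SE 0.11, adjusted p = 0.00303). Emg1, a ribosomal RNA methyltransferase, rose by 0.45 (SE 0.09, adjusted p = 0.00312). These 3 remained called after the correction, at -0.29, -0.43 and 0.26.

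Of 18 genes that regulate TOP mRNAs or act in the mTOR pathway, 1 rose (5.56%) and 4 fell (22.2%), against 13.5% and 15.6% of all genes. After the correction 3 rose and 3 fell, where 11.8% and 11% of all genes did. Larp1, which binds the TOP motif, was at 247, 230.1, 243 and 236 CPM in WT and at 177, 112 and 142 CPM in KO (-0.73, SE 0.12, adjusted p = 0.000799). All KO libraries lay below WT, KO 1 the nearest, and the corrected change was -0.45 (adjusted p = 0.000392). Deptor, an inhibitor of mTOR, fell by 0.63 (SE 0.11, adjusted p = 0.000799; -0.47 and adjusted p = 0.000711 corrected). Tsc1, a subunit of the complex that restrains mTOR, fell by 0.54 (SE 0.14, adjusted p = 0.0109) but was not called after the correction (-0.17, adjusted p = 0.173) or without KO 3 (adjusted p = 0.0821). Mycn, a transcription factor of growth genes at 0.905 ± 0.284 CPM in WT and 1.68 ± 0.215 CPM in KO, rose by 0.88 (SE 0.29, adjusted p = 0.0281), and was not called without WT 1, WT 2, WT 4, KO 2 or KO 3 (adjusted p 0.0529 to 0.0825). Of 10 S6 kinase genes, none rose and 2 fell (20%), and after the correction 2 rose and 1 fell, against the same shares of all genes. The 2 that fell were Rps6kb1, which encodes the main Rps6 kinase, by 0.50 (SE 0.11, adjusted p = 0.00491) and Rps6ka5 by 0.51 (SE 0.15, adjusted p = 0.0162; not called without WT 3 or KO 3, 0.0606 to 0.0844). Rps6ka3 (-0.24, SE 0.09, adjusted p = 0.0617) and Rps6ka6 (-0.31, SE 0.16, adjusted p = 0.155) were not called.

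Of 35 translation factors, 10 rose (28.6%) and 8 fell (22.9%), against 13.5% and 15.6% of all genes. After the correction 5 rose and 3 fell, where 11.8% and 11% of all genes did. The initiation scaffold Eif4g1 fell from 1227 ± 57.2 to 804 ± 194 CPM (-0.61, SE 0.13, adjusted p = 0.00358), and the poly(A)-binding protein Pabpc1, whose mRNA is itself a TOP mRNA, was at 1543, 1395, 1639 and 1619 CPM in WT and at 1191, 1109.8 and 1029.5 CPM in KO (-0.48, SE 0.09, adjusted p = 0.00187). Both remained called after the correction (-0.39 and -0.38). Eif3a, the largest subunit of initiation factor 3, fell by 0.51 (SE 0.12, adjusted p = 0.00527) and was not called after the correction (-0.19, adjusted p = 0.0943). Eif4a1, the initiation helicase, rose by 0.42 (SE 0.10, adjusted p = 0.00599; 0.38 corrected, and not called without KO 3, adjusted p = 0.0566).

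Members moved together across the libraries. The median correlation of a member with the mean of the other members, over 7 libraries, was 0.97, and 60 of 89 exceeded 0.95. Rps4l had -0.80 and Rps10 0.28, and the group difference and the length trend are part of these values. Outside the members, 778 genes (4.95%) exceeded 0.95 with the mean log2 CPM of the members. The 5 most alike were S100a1, Hsbp1, Tomm22, Rtca and Polr1d, with Pearson r of 0.996 to 0.998 over 7 libraries and log2 fold changes of 0.33 to 0.45. All 5 have annotated transcripts of 627 to 1594 bases.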

How the data were processed

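The deposited values were counts: whole numbers of reads per gene symbol, not normalized by the authors, 1 column for each of 7 libraries. The submitters' processing notes name build mm10 and, without roles, HISAT2 2.2.1, fastp, DESeq2 1.28.1, SAMtools, Cufflinks 2.2.1 and featureCounts 1.6.4. Per the labels, the kit was stranded. Not given in the sources used here are the annotation, the strand setting and the treatment of multiply mapped reads. Library totals were 38855596 to 50514556 counts. Floors cover counting error only.

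Tests compared KO 1 to 3 with WT 1 to 4, grouped by the labels' genotype, in edgeR 4.0.16 under R 4.3.3 (TMM scaling, filterByExpr at a minimum count of 10, robust glmQLFit, glmQLFTest), with p adjusted by the Benjamini-Hochberg method over all genes tested. SE was derived from the F statistic. Steps were tested on simulated data. Transcript lengths (median of basic transcripts), GC and coordinates came from GENCODE M21 and were available for 15573 of 15798 genes (98.6%) and all 89 tested members. The correction entered each library's trend on length and GC (natural splines, 4 degrees of freedom, genes above 1 CPM) as an offset. RefSeq start windows were matched by symbol. A family sum adds annotated pseudogenes that share at least 50 windows of 50 bases with a member. Log2 CPM used a prior count of 2. Libraries of a group differed beyond sampling noise (chi-square per degree of freedom at least 10.2). Symbols turned into dates (26 rows, 0.172% of counts) stayed in the totals.

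Members, lists and alternatives were chosen with earlier results of these data known. Named members were Rpl31, the 10 smallest p in each direction, the 5 most abundant, the stalk proteins and Rpsa, X-linked members, Rpl5 and Rpl11, paralogs and untested members, with up to 4 genes of smallest p per other list and the 5 genes most like the members' mean. Alternatives were DESeq2 1.42.0, limma 3.58.1 voom with quality weights, other scalings and filters, a replicate block, libraries left out, KO 1 alone, the corrections and the pseudogene sums. No set test was made. Some items are not reported here.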

Additional observations from a re-analysis of the deposited data

Results flagged for a closer look

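In the 4 WT libraries, the highest or lowest value was set apart from the others for 2 of 38 levels checked, where chance alone sets apart about 1 in 20 groups. Rpl39 was at 547 CPM in WT 1, below the 639 to 649 CPM of the other WT libraries. Rps19bp1 was at 20.2 CPM in WT 2, above the 19.6 to 19.7 CPM of the other WT libraries.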

How the results depend on the processing

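Family sums with the length and GC correction, family sums with KO 1 alone, and KO 1 alone with the correction were added after seeing the data. In the order length and GC, trend without members, length alone, and family sums with length and GC, the members called higher were 18, 19, 10 and 18, their median log2 fold changes 0.11, 0.11, 0.11 and 0.12, and Rpl31 stood at 0.087, 0.092, 0.064 and 0.10. In the order KO 1 alone, family sums with KO 1 alone, and KO 1 alone with length and GC, the calls over all genes were 781, 805 and 1095, the members called higher 0, 1 and 1, the medians 0.11, 0.098 and 0.0094, and Rpl31 0.16, 0.15 and 0.040. The direction of Rplp2 turned to -0.039 with length and GC, -0.035 with the trend without members, -0.026 in family sums with length and GC, and -0.091 with KO 1 alone and the correction. That of Rps19bp1 turned to -0.026, -0.024 and -0.021 in the first 3 of these, and those of Rps27, Rplp1 and Rpsa to -0.066, -0.070 and -0.050 in the last. The cause was not tested.

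With 1 library left out, calls over all genes ranged from 1657 to 6740, members called higher from 12 to 81, and Rpl31 from 0.29 to 0.42. The filter of 10 CPM left 0 members lower, since Rps4l was then not tested. Deviations of same-numbered libraries from their group means correlated at r = 0.06, 0.01 and -0.14 for numbers 1 to 3. The highest r of the WT library with a KO library of another number was 0.0036, 0.20 and 0.07. With so few libraries, these values cannot tell whether the numbers pair the samples. With the replicate block (6 libraries), 42 members were higher, where 7.87% of all genes were, and Rpl31 was at 0.31. The same 6 libraries without the block gave 45 members higher, where 8.14% of all genes were, and 2960 calls over all genes in both directions. DESeq2 called 74 members higher, where 2370 of all 15798 genes tested were, and limma voom 82, where 3123 were. The edgeR fit of all 7 libraries called 70 members and 2128 genes higher, so both alternatives called more genes in general. Scaling by library totals raised the median of all genes by 0.04, with 16.6% of genes higher and 13.5% lower. Rows at a few CPM, such as Rps10 and Rpl24, and shared sequence limit single-gene values. With 3 KO libraries that differ, the size of the change is uncertain.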
